A study of Sus scrofa with 20 samples.

Results

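BAG3, HSP90AB1 and SERPINH1 encode 3 proteins that help other proteins fold, and all 3 are textbook targets of HSF1, the transcription factor that drives the heat shock response. They were measured in kidneys of pigs after neurologic death (ND). Every probe set whose array annotation carries the symbol BAG3, HSP90AB1 or SERPINH1 was taken: 4 of the 23999 probe sets tested, 2 of them for BAG3 and 1 each for HSP90AB1 and SERPINH1. The 3 genes were chosen with their ND against control values known, so those values are given as a description, with no p, and a count of calls among them is not evidence. The levels that vary between animals of the same group were not used in that choice, and these were tested.

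Kidney RNA came from 20 randomized pigs, 10 with ND and 10 controls, on 1-colour porcine arrays with 1 array per animal. ND pigs had a subdural balloon catheter inflated and ND ascertained, in addition to the burr hole, catheters and anaesthesia. Control pigs had the burr hole, catheters and anaesthesia only. Pigs of both groups were ventilated for 6 h and received boluses of 0.9% saline, 2 cc/kg each, when needed to keep the mean arterial pressure above 35 mmHg. No strain, sex or age is stated in the labels used here. Values are log2 signals per probe set, and an animal's name joins its group and its label number, as in ND_47. The number of arrays limits the precision. Array medians ranged from 5.15 to 5.35 in ND and from 5.09 to 5.28 in control. All 4 measured proximal tubule markers and all 3 measured distal nephron markers read above the background level of 2.79 on all 20 arrays, and 6 of 8 measured skeletal muscle markers read at background on all 20 arrays. In whole tissue, fewer cells of a type and less RNA per cell cannot be told apart.

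BAG3 is a co-chaperone. It binds HSP70 proteins through its BAG domain, joins them to the small heat shock protein HSPB8, and routes damaged, mostly cytoskeletal, proteins to autophagy. HSP90AB1 is the more constitutive of the cytosolic HSP90 forms, which mature kinases and steroid receptors, the glucocorticoid receptor among them. SERPINH1, also called HSP47, resides in the endoplasmic reticulum and is needed to fold procollagen. When misfolded proteins draw HSP70 and HSP90 away from HSF1, HSF1 trimerizes and raises many chaperone genes at once, so levels of these genes are often read together.

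BAG3 was lower in ND kidneys, while HSP90AB1 and SERPINH1 overlapped between the groups with means somewhat higher in ND. The brighter BAG3 probe set had a lowest signal of 9.78, a median of 10.53 and a highest of 11.61 in ND animals, against a lowest of 11.49, a median of 11.83 and a highest of 12.14 in controls. Of the ND animals, 9 of 10 lay below the lowest control. The exception was ND_47 at 11.61, which lay above Control_187 at 11.58 and Control_197 at 11.49. The means were 10.57 ± 0.47 in ND and 11.84 ± 0.21 in control (SD, n = 10 each). ND minus control was -1.26 ± 0.16 (SE), a signal 2.40-fold lower in ND, with a 95% interval of -1.60 to -0.93.

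The dimmer BAG3 probe set gave the same picture. Its signal ran from 4.05 through a median of 5.54 to 6.24 in ND, against 6.57 through 6.88 to 7.42 in control. Here the groups did not overlap, as for 0.483% of all probe sets. The difference was -1.36 ± 0.21 (SE), or 2.57-fold lower in ND. The BAG3 probe sets also varied together from animal to animal within each group. Pearson's r between them was 0.86 in ND (permutation p = 0.00358, adjusted p = 0.00358; Spearman's rho 0.95, permutation p = 0.00012) and 0.85 in control (permutation p = 0.00171, adjusted p = 0.00342; rho 0.83, permutation p = 0.00462), adjusted over these 2 correlations. Without the 2 animals of each group farthest from the median, r was 0.87 in ND (exact permutation p = 0.00248) and 0.76 in control (exact permutation p = 0.0302). The SD among ND animals was 2.20 times that among controls for the brighter probe set and 2.37 times for the dimmer one. Without ND_47 the ratio was 1.46 for the brighter probe set and 2.30 for the dimmer one. Without ND_31 it was 1.87 for the brighter probe set and 1.41 for the dimmer one. The spread itself was not tested.

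Some cell type markers also differed between the groups. Of 4 measured proximal tubule markers 0 passed limma's adjusted test, with 1 at an unadjusted p under 0.05. Of 10 measured endothelium markers CLDN5 rose, beside 5.44% of all genes as higher. Among the other endothelium markers 2 were at an unadjusted p under 0.05. All 3 measured distal nephron markers had lower means in ND, by 0.49 to 0.54, and none passed limma's adjusted test, with 3 at an unadjusted p under 0.05. Their mean level ran from 8.66 to 9.86 in ND and from 9.27 to 10.06 in control. Of 7 measured T and NK cell markers 4 rose, beside 5.44% of all genes. The mean level of the 7 was 3.56 to 5.08 in ND and 3.11 to 3.80 in control. Of 9 measured macrophage markers 2 rose and 3 fell, beside 5.44% of all genes as higher and 4.55% as lower. Of the 9, 1 read at background on all arrays. The mean level of the 9 was 6.43 to 7.86 in ND and 6.75 to 7.50 in control. The part of these cells in the BAG3 difference was not tested.

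HSP90AB1 differed little between the groups. Its lowest, median and highest signals were 12.76, 13.06 and 13.95 in ND, against 12.61, 12.92 and 13.40 in control. The groups overlapped, and ND_47 was the 1 ND animal above the highest control. The means were 13.14 ± 0.34 in ND and 12.92 ± 0.22 in control (SD, n = 10 each), a difference of 0.22 ± 0.13 (SE; 95% interval -0.04 to 0.49). Without ND_47 the difference was 0.13, and it was 0.0073 when restricted to the 3 ND and 5 control animals with the highest label numbers. Label number and group were unevenly matched, since 7 of 10 ND animals but 1 of 10 controls had a number up to 100.

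SERPINH1 ran from 8.49 through a median of 9.36 to 11.16 in ND, against 7.60 through 8.67 to 10.45 in control. The highest ND value was again that of ND_47 and the highest control value that of Control_199, with the other animals of both groups between 7.60 and 9.90. The means were 9.35 ± 0.82 in ND and 8.74 ± 0.80 in control (SD, n = 10 each), a difference of 0.61 ± 0.35 (SE; 95% interval -0.13 to 1.35). It was 0.41 without ND_47, 0.80 without Control_199 and -0.06 among the highest-numbered animals. The BAG3 difference was -1.13 among those animals, and between -1.38 and -1.17 when any 1 animal was left out. Both BAG3 probe sets and neither of the other 2 passed limma's adjusted p of 0.05 over all probe sets, where 7.13% of probe sets passed, 3.8% as higher and 3.33% as lower. As the genes were chosen from this comparison, nothing is read from that count.

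**Figure D1:**
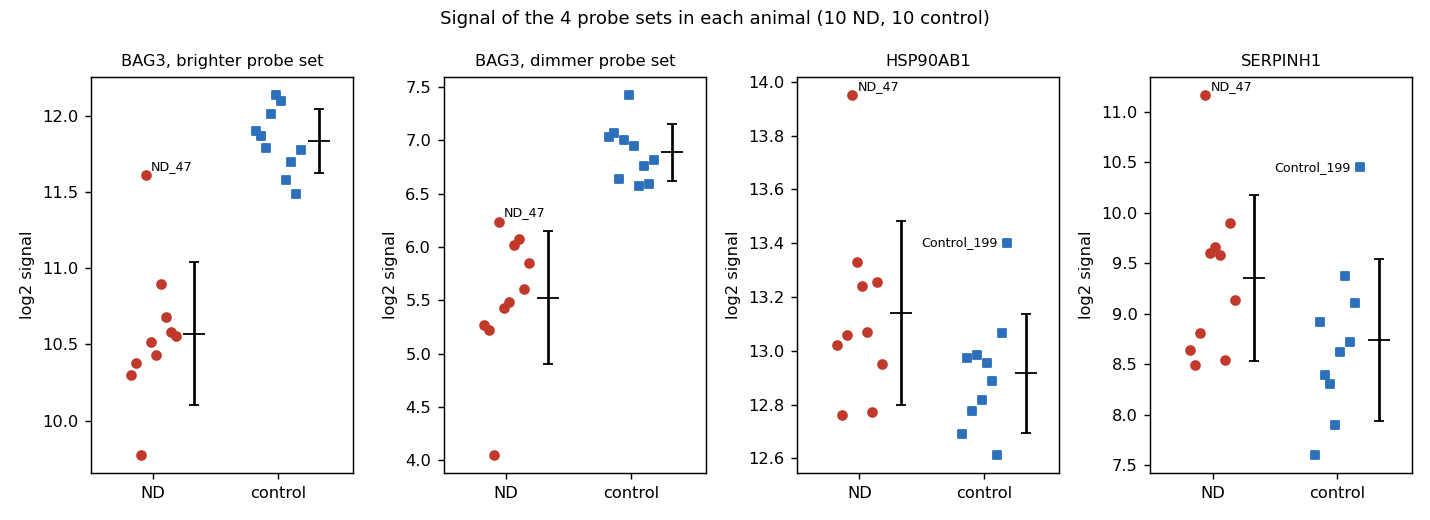
Log2 signal of the 4 probe sets in each animal, with ND animals as red circles and control animals as blue squares, 10 each, and the mean ± SD as black bars. The signal axes differ between panels and do not start at 0. BAG3 is low in ND on both probe sets (means 10.57 and 5.52 in ND, 11.84 and 6.89 in control), while HSP90AB1 and SERPINH1 overlap, with ND_47 and Control_199 at the top of their groups.

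By their brightest probe sets, as deposited, none of the other measured HSF1-linked genes fell. With the arrays brought to a common median HSF1 and DNAJB6 were called lower in ND. Of 34 genes listed, 27 were measured, which leaves 24 beside BAG3, HSP90AB1 and SERPINH1. Of these 24, 1 rose, 0 fell and 23 did not pass, where 9.99% of the 6765 genes passed, 5.44% as higher and 4.55% as lower (limma, adjusted p under 0.05, each gene by its brightest probe set). At an unadjusted p under 0.05 a further 2 were found, HSF1 as lower and PTGES3 as higher in ND. Their differences ran from -0.19 to 0.77 with a median of 0.11, beside a median of -0.02 over all genes. With the arrays brought to a common median these medians were 0.02 and -0.11.

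The gene that rose was IER5, an immediate early gene whose product assists HSF1. Its signal had a lowest value of 8.42 and a highest of 10.21 in ND, against 7.47 and 8.89 in control, and the groups overlapped. Its difference was 0.77 ± 0.21 (SE; limma adjusted p = 0.0350). The call was lost without any 1 of ND_86, ND_92, ND_100, Control_134, Control_156, Control_157 or Control_190 (limma adjusted p 0.0503 to 0.0664). It was also lost with array weights (0.0848), with a term for animal number (0.379) and among the highest-numbered animals (0.632).

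The heat shock factors did not pass. HSF1 itself differed by -0.16 ± 0.07 (SE; limma adjusted p = 0.155) and HSF2 by 0.18 ± 0.09 (SE; adjusted p = 0.183). Among HSP70 family members and their partners, by brightest probe sets, the constitutive HSPA8 differed by 0.04 (95% interval -0.47 to 0.56) and HSPA4 by 0.11 (-0.37 to 0.58). The nucleotide exchange factor HSPH1 differed by 0.30 (-0.78 to 1.39). The other HSPA8 probe sets had lower means in ND, by -0.17, -0.18 and -0.28, and did not pass (limma adjusted p 0.140 to 0.451). The other HSPA4 probe sets differed by 0.28 and -0.06 and did not pass either. DNAJB1, the J-protein partner of HSP70 in the heat shock response, differed by 0.17 (-0.18 to 0.52). DNAJA1 differed by 0.47 (-0.25 to 1.18).

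The small heat shock proteins that BAG3 binds did not pass either. HSPB8, the partner of BAG3 in autophagy, differed by 0.45 (95% interval -0.32 to 1.22), HSPB1 by 0.26 (-0.41 to 0.93) and the lens and muscle chaperone CRYAB by 0.56 (-0.41 to 1.52). Of 11 measured BAG3 partners in autophagy and the cytoskeleton 0 passed limma's test in either direction, with 1 at an unadjusted p under 0.05. In the BAG family, BAG1 (0.26, limma adjusted p = 0.198), BAG5 (-0.14, adjusted p = 0.462) and BAG6 (0.0012, adjusted p = 0.995) did not pass.

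**Figure D2:**
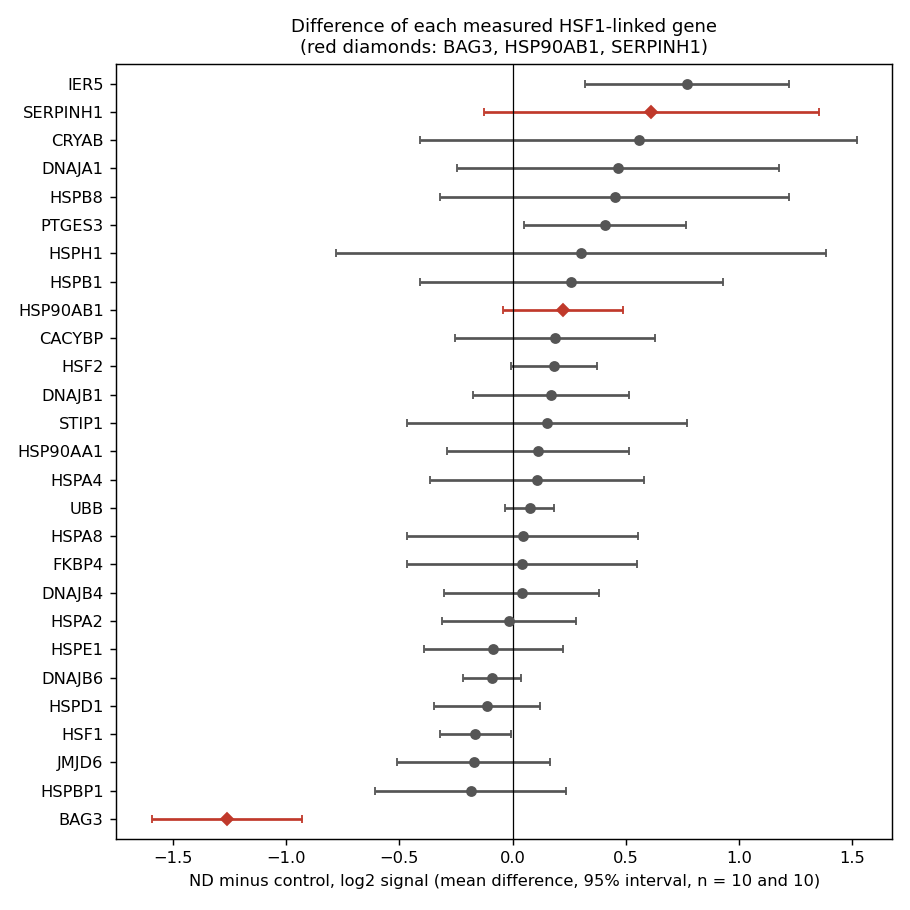
ND minus control in log2 signal for the 27 measured HSF1-linked genes, by the brightest probe set of each, with 95% intervals from limma's SE (10 ND and 10 control animals). Points right of 0 are higher in ND. BAG3 stands at -1.26 at the foot of the plot, while the 24 other genes beside HSP90AB1 and SERPINH1 lie between -0.19 and 0.77.

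Around HSP90AB1, 13 of 14 measured HSP90 family members and co-chaperones did not pass, HSP90AB1 itself included. The other 1 fell, beside 4.55% of all genes as lower. The inducible HSP90AA1 differed by 0.11 (95% interval -0.29 to 0.52) on its brightest of 5 probe sets. Its other probe sets disagreed, at 0.58, -0.13, -0.74 and -0.05. The 1 that passed was the one at -0.74 (limma adjusted p = 0.0269), with means of 7.03 in ND and 7.78 in control. FKBP5, the co-chaperone that fell, is a glucocorticoid-induced gene (8.87 in ND and 12.19 in control on average, limma adjusted p = 7.21e-12). FKBP4, the co-chaperone that competes with it, differed by 0.04 (-0.47 to 0.55).

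Around SERPINH1, 0 of 17 measured genes of collagen and collagen maturation passed limma's test, SERPINH1 included, with 2 others at an unadjusted p under 0.05. The list had a median difference of 0.15. Its mean level per animal ran from 7.14 to 7.91 in ND and from 6.83 to 7.66 in control, and the top animals were again ND_47 and Control_199. Of 11 measured fibroblast and smooth muscle markers PDGFRB rose, beside 5.44% of all genes as higher. The other 10 did not pass, 3 of them at an unadjusted p under 0.05, and MYLK read at background on all arrays. The mean level of the 11 ran from 6.86 to 8.40 in ND and from 6.69 to 7.76 in control, with ND_47 at 8.40. The part of these cells in the SERPINH1 level was not tested. Chaperones of the endoplasmic reticulum, where SERPINH1 works, had 1 of 16 higher, beside 5.44% of all genes (ERO1A, the oxidase of disulfide formation, 0.54, limma adjusted p = 0.0386) and 0 lower, with 1 other at an unadjusted p under 0.05. Among 12 chaperonin and mitochondrial chaperone genes, DNAJA3 fell (-0.51, limma adjusted p = 0.0187), beside 4.55% of all genes as lower. The other 11 did not pass, 2 of them at an unadjusted p under 0.05.

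The question of whether BAG3 follows the other HSF1-linked genes was then asked within each group, from animal to animal. For each of the 26 other measured genes, Pearson's r with BAG3 was computed over 10 ND animals and over 10 controls. With HSP90AB1 against SERPINH1 added, the family held 54 correlations, each with a two-sided permutation p and Benjamini-Hochberg adjustment. In ND 24 of 26 genes had a positive r with BAG3, with a median of 0.61. In control 21 of 26 had a negative r, with a median of -0.42. None of the correlations with BAG3 passed adjustment in either group, by Pearson's r or by Spearman's rho. At an unadjusted permutation p under 0.05 there were 9 in ND and 2 in control by Pearson's r, and 2 in ND and 5 in control by Spearman's rho. These genes vary together, so the counts of signs are not counts of independent genes.

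DNAJB1 had a positive r with BAG3 in both groups. In ND its lowest, median and highest signals were 9.37, 10.22 and 10.77, and r with BAG3 was 0.85 (permutation p = 0.00232, adjusted p = 0.0626; rho 0.77, permutation p = 0.0129, adjusted p = 0.207). In control the signals were 9.43, 10.07 and 10.43, and r was 0.69 (permutation p = 0.0284, adjusted p = 0.154; rho 0.61, permutation p = 0.0673, adjusted p = 0.288). Without ND_47 r in ND was 0.82 (exact permutation p = 0.00719, adjusted p = 0.194). Without the 2 animals farthest from the median of BAG3, r was 0.59 in ND and 0.52 in control (exact permutation p = 0.124 and 0.182). With the mean of the BAG3 probe sets in place of the brighter one, r in ND was 0.86 and passed (permutation adjusted p = 0.0489). With the arrays brought to a common median it was 0.85 and also passed (permutation adjusted p = 0.0302). It passed as well without ND_92 (exact permutation adjusted p = 0.0493) or ND_193 (exact permutation adjusted p = 0.0247).

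UBB, a polyubiquitin gene, had an r with BAG3 of 0.87 in ND (permutation p = 0.0111, adjusted p = 0.119; rho 0.43, permutation p = 0.222, adjusted p = 0.390) and 0.53 in control (permutation p = 0.116, adjusted p = 0.250; rho 0.72, permutation p = 0.0230, adjusted p = 0.207). Without the 2 animals farthest from the median of BAG3 it was -0.0047 in ND (exact permutation p = 0.992) and 0.39 in control (exact permutation p = 0.349), so in ND the relation rests on ND_47 and ND_31. With the arrays brought to a common median r was 0.88 in ND and passed (permutation adjusted p = 0.0302).

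SERPINH1 had a positive r with BAG3 in ND and a negative one in control. It was 0.76 in ND (permutation p = 0.0202, adjusted p = 0.137; rho 0.49, permutation p = 0.155) and -0.52 in control (permutation p = 0.121, adjusted p = 0.250; rho -0.73, permutation p = 0.0195), and neither passed adjustment. Without the 2 farthest animals r was 0.35 in ND and -0.43 in control (exact permutation p = 0.409 and 0.286), and without ND_47 alone it was 0.38 in ND. HSP90AB1 gave 0.65 in ND (permutation p = 0.0704, adjusted p = 0.210; rho 0.37, permutation p = 0.296) and -0.11 in control (permutation p = 0.774, adjusted p = 0.853; rho -0.14, permutation p = 0.706). Without ND_47 its r in ND was -0.0086, and without the 2 farthest animals it was 0.0019 in ND and 0.13 in control (exact permutation p = 0.997 and 0.761).

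ND_47 stood high for much of the list. It had the highest signal of the ND animals for 21 of 27 HSF1-linked genes, where it was highest for 23.9% of all genes. Control_199 was the highest control for 13 of 27, where it was highest for 10.3% of all genes. Without ND_47 the median r with BAG3 in ND was 0.23, with 19 of 26 positive. Without Control_199 the median r in control was -0.45, with 21 of 26 negative. ND_47 had the lowest ratio of 3′ to 5′ signal in the ND group for both control transcripts (GAPDH 1.46, actin 2.60 on the log2 scale; other ND animals up to 1.98 and 5.16; controls 1.46 to 2.20 and 3.46 to 5.30), and the highest array median at 5.35. Control_199 had the highest actin value at 5.30. The part of RNA quality in these correlations was not tested.

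A limma fit over all probe sets, with a separate slope on BAG3 in each group, set these correlations against the rest of the array. Within ND 961 of 23997 probe sets (4%) rose with BAG3 and 593 (2.47%) fell with it at an adjusted p under 0.05. Of the 26 HSF1-linked genes 3 rose with BAG3: DNAJB1 (slope 0.75 ± 0.17, SE; limma adjusted p = 0.0146), UBB (0.27 ± 0.05; 0.00789) and HSPBP1, a nucleotide exchange factor of HSP70 as BAG3 is (1.03 ± 0.22; 0.0101). The slope is the log2 change per log2 unit of BAG3. Without ND_47 the total was 104 probe sets and 0 of the 26 genes passed. Without ND_31 the genes that passed were HSPA4, HSPBP1 and IER5, so DNAJB1 and UBB were lost. With the mean of the BAG3 probe sets DNAJB1 and UBB passed and HSPBP1 did not. Within control 0 probe sets passed limma's test, with 2076 at an unadjusted p under 0.05. BAG3 varied less in control (SD 0.21) than in ND (SD 0.47), so control slopes were less precise. The control slope of DNAJB1 was 1.10 ± 0.38 (SE; limma adjusted p = 0.459). The count of 0 therefore does not show that BAG3 was unrelated to other genes in control.

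The difference between the ND slope and the control slope was tested in the same fit. For 5 probe sets the slopes differed (0.0208%), and none of the 26 HSF1-linked genes was among them. SERPINH1 had the slopes 1.33 ± 0.45 (SE) in ND and -1.97 ± 0.99 in control, with a difference of 3.30 ± 1.09 and a limma adjusted p of 0.187 (unadjusted 0.00770). After adjustment a turn of sign between the groups was thus not shown for any list gene. At an unadjusted limma p under 0.05, SERPINH1 was joined by HSPA4, HSPA8, HSPH1, DNAJA1, HSP90AA1, HSPB1 and HSPB8. CRYAB, HSPE1, FKBP4, HSPBP1 and IER5 also lay under it, and all of these had the higher slope in ND. Of all 23997 probe sets, 3406 had an unadjusted p under 0.05 for the difference. The count of 5 was 633 without ND_31, 455 without Control_184, 8 without ND_92, and 0 without Control_187 or Control_197.

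**Figure D3:**
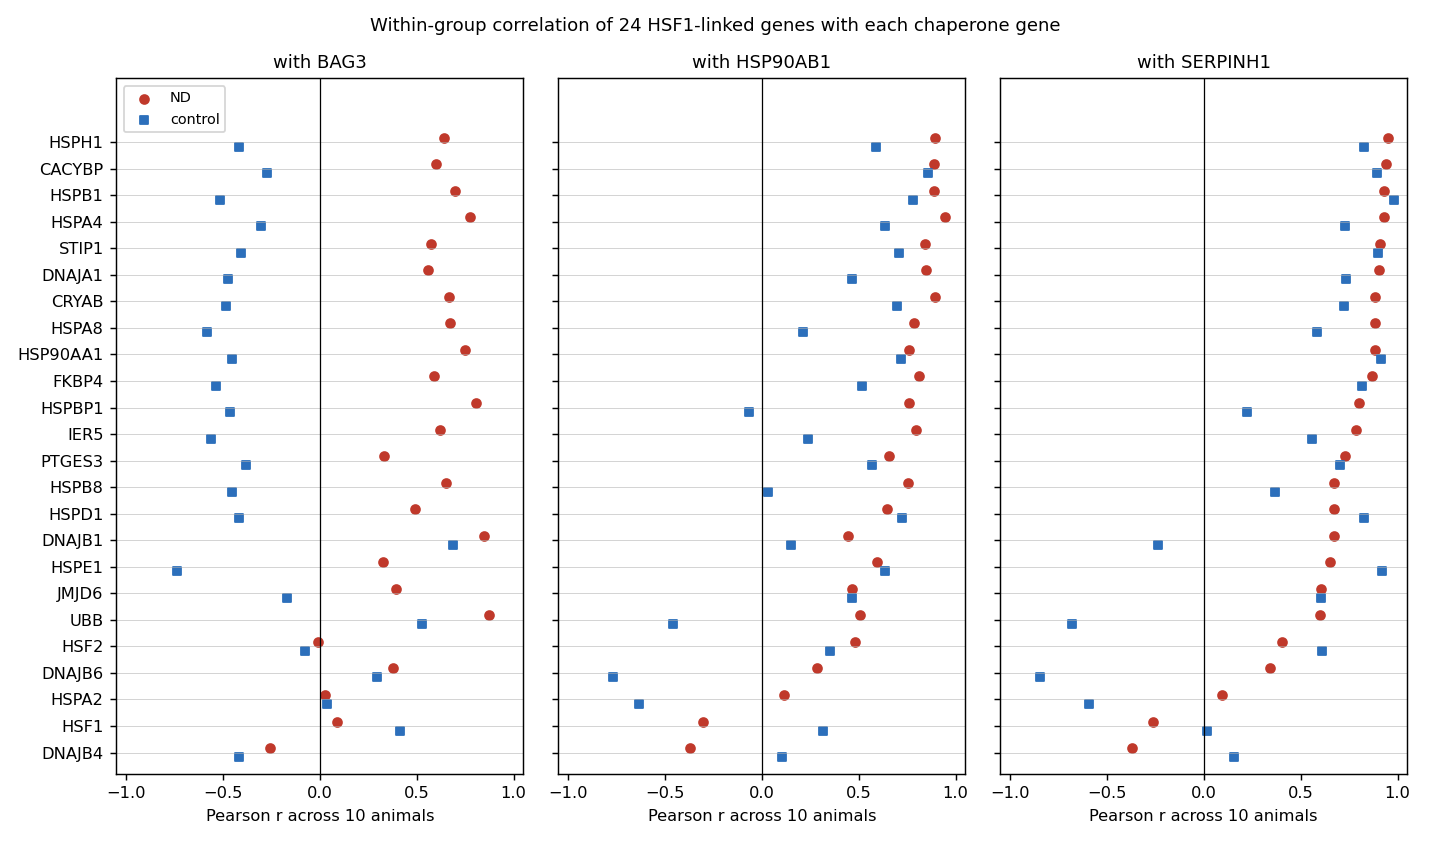
Pearson r of 24 HSF1-linked genes with BAG3, HSP90AB1 and SERPINH1 (panels) across the 10 ND animals (red circles) and the 10 controls (blue squares), with genes ordered by r with SERPINH1 in ND. Most genes sit right of 0 in both groups for SERPINH1, whereas for BAG3 most ND points lie right of 0 and most control points left of it, with HSF1, HSPA2, DNAJB1, DNAJB6 and UBB right of 0 in both.

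HSP90AB1 and SERPINH1 varied together in ND. Their r in ND was 0.95 (permutation p = 0.00025, adjusted p = 0.0135; rho 0.93, permutation p = 0.00031, adjusted p = 0.0167). In control it was 0.77 (permutation p = 0.0124, adjusted p = 0.119; rho 0.55, permutation p = 0.105). Without ND_47 r in ND was 0.86 (exact permutation p = 0.00414, adjusted p = 0.194), and without Control_199 r in control was 0.47 (exact permutation p = 0.205). Without the 2 animals farthest from the median of HSP90AB1 it was 0.81 in ND (exact permutation p = 0.0161, adjusted p = 0.838) and 0.69 in control (exact permutation p = 0.0598).

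After these values were seen, HSP90AB1 and SERPINH1 were each set against the 24 other list genes in the same way, a further 96 correlations with their own adjustment. SERPINH1 passed with 13 of 24 genes in ND, all positive, and with 11 of 24 in control, 10 positive and 1 negative. In both groups it passed with HSPH1, DNAJA1, HSP90AA1, HSPB1, CRYAB, FKBP4, STIP1 and CACYBP. The median r over the 24 genes was 0.76 in ND and 0.66 in control. HSP90AB1 passed with 11 of 24 in ND and 4 of 24 in control, 1 of the 4 negative. The limma fit, a different test that was adjusted over 23998 probe sets rather than 96 correlations, gave fewer list genes in control. Of the 26 other list genes, 14 in ND and 6 in control rose with SERPINH1, and 11 in ND and 0 in control rose with HSP90AB1. BAG3 was among the 14, with a slope on SERPINH1 of 0.43 ± 0.11 in ND (SE; limma adjusted p = 0.0142). Its slope in control was -0.14 ± 0.11 (limma adjusted p = 0.680), and the difference of the slopes did not pass (limma adjusted p = 0.136, unadjusted 0.00144). The reverse slope, of SERPINH1 on BAG3, did not pass in ND (limma adjusted p = 0.0914). In that fit 6.08% of all probe sets rose and 4.07% fell with SERPINH1 within ND, and 0.925% rose and 0.6% fell within control. For HSP90AB1 6.53% rose and 3.93% fell within ND, and 0.00417% rose and 0% fell within control. Without ND_47 and Control_199, 0 probe sets passed in ND for either gene (1670 for SERPINH1 and 1593 for HSP90AB1 at an unadjusted p under 0.05), and in control 50 passed for SERPINH1 and 0 for HSP90AB1 (592 at an unadjusted p under 0.05).

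The small heat shock protein HSPB1 followed SERPINH1 in both groups. HSPB1 had a lowest signal of 9.78 and a highest of 12.01 in ND, against 9.47 and 12.27 in control. Its r with SERPINH1 was 0.93 in ND (permutation adjusted p = 0.000823; rho 0.88) and 0.98 in control (permutation adjusted p = 0.00048; rho 0.98). Without ND_47 it was 0.85 in ND (exact permutation adjusted p = 0.0123), and without Control_199 it was 0.96 in control (exact permutation adjusted p = 0.00516). Without the 2 animals of each group farthest from the median of SERPINH1 it was 0.81 in ND and 0.95 in control (exact permutation adjusted p = 0.0553 and 0.00714). With those top animals left out, SERPINH1 passed with 7 of 24 genes in ND and 2 of 24 in control, and HSP90AB1 with 2 and 0. With the 2 farthest left out, the counts were 4 and 3 for SERPINH1 and 0 and 1 for HSP90AB1. That 1 was negative, DNAJB6 in control (r -0.90, exact permutation adjusted p = 0.00714). Over all 10 controls r of DNAJB6 with HSP90AB1 was -0.77 (permutation adjusted p = 0.0484). It did not pass by Spearman's rho (-0.60, permutation adjusted p = 0.154) or without Control_199 (r -0.57, exact permutation adjusted p = 0.249). In control 4 of 24 genes had a negative r with SERPINH1, and the 1 of them that passed was DNAJB6, a J-protein that blocks aggregation (r -0.85, permutation adjusted p = 0.0166). That call was lost by Spearman's rho (-0.76, permutation adjusted p = 0.0503), without Control_199 (r -0.73, exact permutation adjusted p = 0.0880) and without the 2 farthest animals (r -0.48, exact permutation adjusted p = 0.395).

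**Figure D4:**
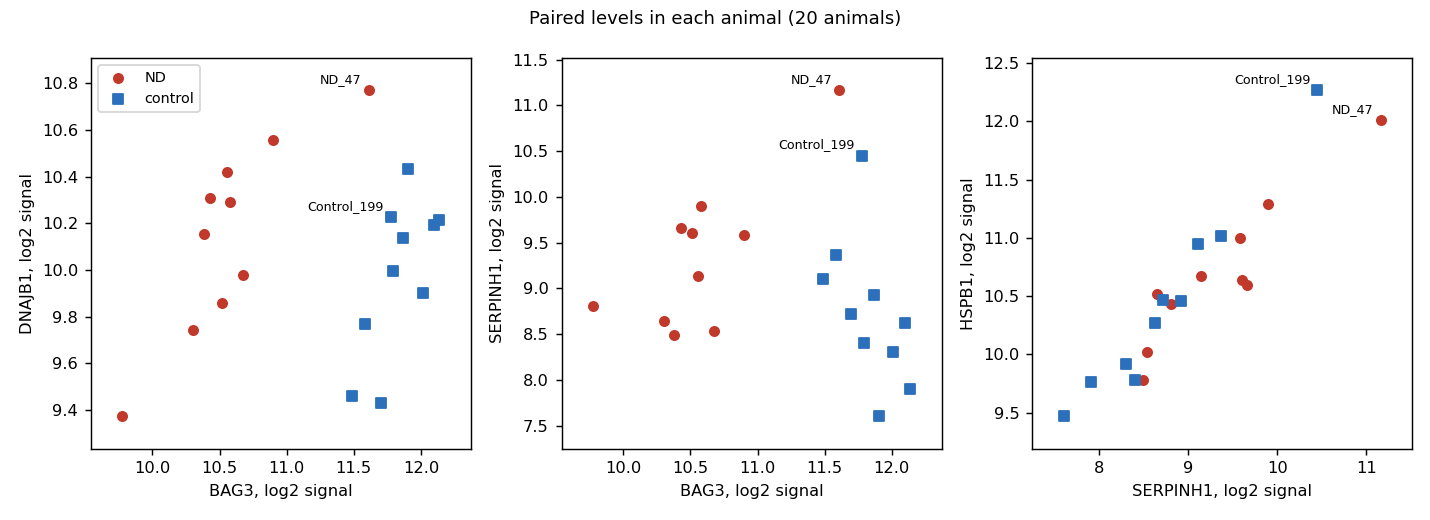
Log2 signals of 2 genes in each animal, ND as red circles and control as blue squares, for BAG3 with DNAJB1, BAG3 with SERPINH1, and SERPINH1 with HSPB1. In the left panel the groups form separate rising bands, with an r of 0.85 in ND and 0.69 in control. In the right panel both groups lie along 1 band, with an r of 0.93 in ND and 0.98 in control.

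The genes most like each chaperone gene were ranked by the lower of the 2 within-group r values, over the 5391 other genes above background on all arrays. For SERPINH1 the first 5 were HSPB1, STIP1, CACYBP, HSP90AA1 and NUDC, with r from 0.87 to 0.94 in ND and from 0.89 to 0.98 in control. The first 4 of these are on the HSF1-linked list, and STIP1 and NUDC are HSP90 co-chaperones. For HSP90AB1 they were CACYBP (0.89 in ND, 0.86 in control), ATP8B1, SLC8B1, TAF7 and HBEGF (0.79 in ND, 0.82 in control). Without ND_47 the r with HSP90AB1 in ND was 0.49 for SLC8B1 and 0.12 for HBEGF, and without Control_199 that of HBEGF in control was 0.45. For CACYBP, ATP8B1 and TAF7 it was between 0.67 and 0.81 in ND without ND_47 and between 0.60 and 0.76 in control without Control_199. For BAG3 they were MED20 (0.82 in ND, 0.83 in control), SMAD1, SF3B4, DNAJB1 and JARID2 (0.69 in ND, 0.74 in control), of which DNAJB1 alone is on the list. Without ND_47 the r with BAG3 in ND was 0.48 for MED20, 0.32 for SMAD1, 0.67 for SF3B4, 0.82 for DNAJB1 and 0.36 for JARID2. Among the genes ranked here, ATP8B1, a phospholipid flippase, rose in ND (0.99, limma adjusted p = 0.0112), and the others did not pass.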

How the data were processed

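The deposited table holds a value for every probe set on each array. It is read here as log2 signal, a unit inferred from its range of 0.88 to 16.2. Per the labels' protocols, TRIzol RNA (250 ng) was made into biotin-labelled cRNA. Background correction, summarization and normalization are not given in the sources used here. They can move the balance of higher and lower calls. The labels name no batch, litter or scan date, and tell of 2 kidney specimens per animal without saying which went on the array. P-values measure the spread between animals.

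Of 24123 probe sets, 124 control probe sets were left out. Names came from the platform annotation: 10069 probe sets had 1 gene symbol, 198 several and 13732 none here. A gene was represented by its brightest probe set over all arrays. Background was the highest signal, 2.79, among control probe sets for tags and tryptophan genes.

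Differences are ND minus control from limma 3.58.1 (lmFit and eBayes) in R 4.3.3 without covariates, with Benjamini-Hochberg adjustment over 23999 probe sets. Slopes on BAG3 centred within groups came from 1 limma fit over 20 arrays. Correlations used numpy 2.4.6 in Python 3.11.15 with 100000 permutations, or exact enumeration under 10 animals. The fits were tested on simulated data with independent noise in each probe set. Genes here vary together, so that test does not bear on how far the slope calls can be trusted. The genes, lists and tests were chosen with earlier results of these data known. Named genes were the 3 chaperone genes, measured HSF1-linked genes, called genes of the other lists, and the 5 most alike per gene. Slopes and correlations on HSP90AB1 and SERPINH1 were added after seeing the data. BAG1, BAG5, BAG6 and MYLK were chosen after their values were seen. Alternatives covered scaling, filters, the variance model, array weights, probe set means, animal number, and leaving out animals.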

Additional observations from a re-analysis of the deposited data

Results flagged for a closer look

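The 27 HSF1-linked genes and the dimmer BAG3 probe set, in each group, gave 56 sets of 10 values. Of these, 11 held 1 animal far from the nearest of the others, where chance gives about 1 in 20 per set. The sets share animals and hold genes that vary together, so these 11 are not independent. ND_47 stood high in 5 of them: SERPINH1 (11.16, next 9.90), HSP90AB1 (13.95, next 13.33), HSPA4 (11.22, next 10.06), HSPB8 (7.22, next 5.45) and HSPBP1 (8.61, next 7.66). Control_199 stood high for HSP90AA1 (14.61, next 13.91) and CACYBP (12.18, next 11.25). The others were HSPB8 in Control_187 (6.17, next 4.76), HSPA2 in ND_86 (5.47, next 4.87) and in Control_02 (5.25, next 4.70), and, on the low side, the dimmer BAG3 probe set in ND_31 (4.05, next 5.22).

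For 5 probe sets the slope on BAG3 differed between ND and control by limma's test of the difference. ND minus control slopes were 1.54 for EPRS (limma adjusted p = 0.0105), -1.48 for EIF3L (adjusted p = 0.0115), and 1.36, -1.61 and -3.49 for 3 probe sets without a single gene symbol here. All 5 calls were lost without Control_187 or Control_197.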

How the results depend on the processing

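The BAG3 difference stayed between -1.38 and -1.13 under every alternative run. For all probe sets the median difference was -0.03 as deposited and -0.12 with arrays brought to a common median. HSP90AB1 ranged from 0.13 to 0.28 and SERPINH1 from 0.41 to 0.80 when each animal was left out. Probe sets changed, 1712 (913 higher, 799 lower), numbered 8789 with the arrays brought to a common median (1061 higher, 7728 lower), 505 with the animal number term, 57 among the 3 ND and 5 control animals with the highest label numbers (7 of 10 ND animals but 1 of 10 controls had numbers up to 100), and 1295 to 2303 leaving out each animal. With quantile normalization 917 were higher and 1198 lower. HSF1-linked genes changed, 2, of which 1 is BAG3, itself chosen from this comparison, numbered 4 with the common median (HSF1 and DNAJB6 added, both lower) and 1 with array weights, the number term or the highest-numbered animals, and 1 to 3 leaving out each animal.

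Probe sets associated with BAG3, 1554 within ND and 0 within control, numbered 765 and 0 with the common median, and 214 and 2 with the mean of the BAG3 probe sets. They numbered 2 and 0 without the 2 farthest animals of each group, and 104 to 1941 and 0 to 18 leaving out each animal. The 5 differing slopes became 0 with the common median, the mean of the probe sets or without the farthest animals, and 0 to 633 leaving out each animal. BAG3 correlations that passed, 0, became 2 with the common median (DNAJB1 and UBB in ND) and 1 with the mean of the probe sets. They numbered 0 to 4 leaving out each animal (4 without ND_193, 1 without ND_92). The 4 without ND_193, all in ND, were HSP90AA1 (r 0.93), HSPBP1 (0.91), HSPA8 (0.88) and DNAJB1 (0.87). Their exact permutation adjusted p ran from 0.012 to 0.0247. The correlation of HSP90AB1 with SERPINH1 was 0.86 to 0.96 in ND and 0.47 to 0.88 in control leaving out each animal, and 0.81 in ND, no longer past the threshold, without the 2 farthest. The correlations of HSP90AB1 and SERPINH1 with other list genes that passed numbered 39, and 22 by Spearman's rho, 8 without the 2 farthest and 11 without ND_47 or Control_199. The causes were not tested. No paired analysis was possible because the groups share no animal number.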
